A study of Macaca mulatta with 8 samples.

Results

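The 56 genes described here belong to the mitogen-activated protein (MAP) kinase cascades and to the family of dual-specificity phosphatases (DUSPs). They are all genes whose single symbol in the platform annotation begins with MAPK, MAP2K, MAP3K, MAP4K or DUSP, out of 14132 genes measured, and they comprise 36 MAPK-prefix genes and 20 DUSP genes. They were measured in granulosa cells of rhesus macaques (Macaca mulatta), the somatic cells of the ovarian follicle, with 1 Affymetrix rhesus array for each of 8 RNA samples. In 4 samples, titled PM-GC and called before hCG here, the animals had been stimulated with follicle-stimulating hormone (FSH) only. In the other 4, titled VVM-GC and called after hCG, human chorionic gonadotropin (hCG) had followed FSH as the ovulatory stimulus, so FSH is shared by all 8. The series design calls the cells mural, whereas the labels of their source name the cumulus-oocyte complex. Age, strain, the interval after hCG, and the animals behind each array were not stated in the labels. Replicates may therefore share animals, and the p-values measure only the spread between these samples, which may be technical.

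MAP kinase signalling runs in tiers. A MAP kinase kinase kinase (MAP3K), itself switched on by small G proteins or by a MAP4K, phosphorylates a MAP kinase kinase (MAP2K), which phosphorylates a MAP kinase on a threonine and a tyrosine of its activation loop. The extracellular signal-regulated kinases (ERK), the c-Jun N-terminal kinases (JNK) and the p38 kinases are the main end points, and typical DUSPs, also called MAP kinase phosphatases, remove both phosphates again. In ovarian follicles the luteinizing hormone receptor, which hCG also binds, and EGF-like growth factors act through ERK in granulosa cells, and loss of ERK signalling in these cells prevents ovulation in mice. The arrays measured transcripts only, and not phosphorylation or kinase activity.

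The arrays resembled each other more within a group (Pearson r across probe sets 0.974 to 0.988) than between the groups (0.935 to 0.957), and array medians of log2 intensity lay between 5.44 and 5.54. Of 9 measured granulosa cell markers, 8 were lower after hCG and FST did not pass, and their average log2 signal was 10.7 to 11.0 on the arrays before hCG and 9.51 to 9.80 after it. The averages of the 8 oocyte markers were 5.46 to 5.63 before and 5.76 to 6.02 after hCG, with KIT higher and the other 7 not past the threshold. Theca markers averaged 7.05 to 7.19 and then 6.63 to 6.85 (1 of 4 lower), endothelial markers 5.61 to 5.84 and then 5.51 to 6.01 (none of 9 past), and leukocyte markers 6.37 to 6.74 and then 5.41 to 6.75 (1 of 9 lower). After hCG, the leukocyte markers PTPRC and LYZ were lowest on array 3 (3.89 and 4.18, other arrays 5.78 to 7.39 and 7.55 to 8.12). CD68, CD14 and TYROBP were also lowest on that array (5.88, 5.89 and 6.19). So were CSF1R and ITGAM, by a narrow margin (7.02 and 5.33, next lowest 7.04 and 5.36). Only AIF1 and FCGR3 were not lowest on it. Stromal markers averaged 6.30 to 6.57 and then 6.30 to 6.68 (none of 4 past), and erythrocyte markers 8.70 to 9.28 and then 6.75 to 8.57 (2 of 3 lower). The table has no detection calls, and the part of such cells in the results below was not tested.

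The comparison asks which transcripts of these cascades differed after the ovulatory stimulus. MAP4K4, a kinase at the top of the JNK cascade, rose 5.71-fold, and MAP2K1 (MEK1), which phosphorylates ERK, rose 2.05-fold. MAPKAPK5 and MAPKAPK2, kinases that act below the MAP kinases, rose, whereas MAPKAPK3, the close relative of MAPKAPK2, fell. MAP3K4, a kinase above p38 and JNK, was 2.38-fold lower. Among phosphatases DUSP21, DUSP28 and DUSP8 rose and DUSP19, DUSP22 and DUSP23 fell. With 1 array left out in turn, the calls of DUSP8 and DUSP22 were each lost in 6 of 8 fits and that of DUSP23 in 1.

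Of the 56 genes, 12 passed the threshold of 0.05 on the adjusted p (limma, Benjamini-Hochberg over all 14132 genes). That is 21.4% of them, against 23.8% of all genes. Higher after hCG were 7 (12.5%, against 11.3% of all genes) and lower were 5 (8.93%, against 12.5%). The share that changed was thus close to that of the arrays as a whole. Of the 12, 7 changed at least 2-fold (12.5% of the 56, against 10.5% of all genes). The groups did not overlap for 15 of the 56, while this held for 27.2% of all genes. The median log2 change of the 56 genes was -0.06, and that of all genes -0.09; the median size of the change, regardless of direction, was 0.26 and 0.24. Of the 44 genes that did not pass, 7 had an unadjusted p under 0.05. In bulk RNA, fewer cells with a transcript and less of it per cell cannot be told apart.

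**Figure D1:**
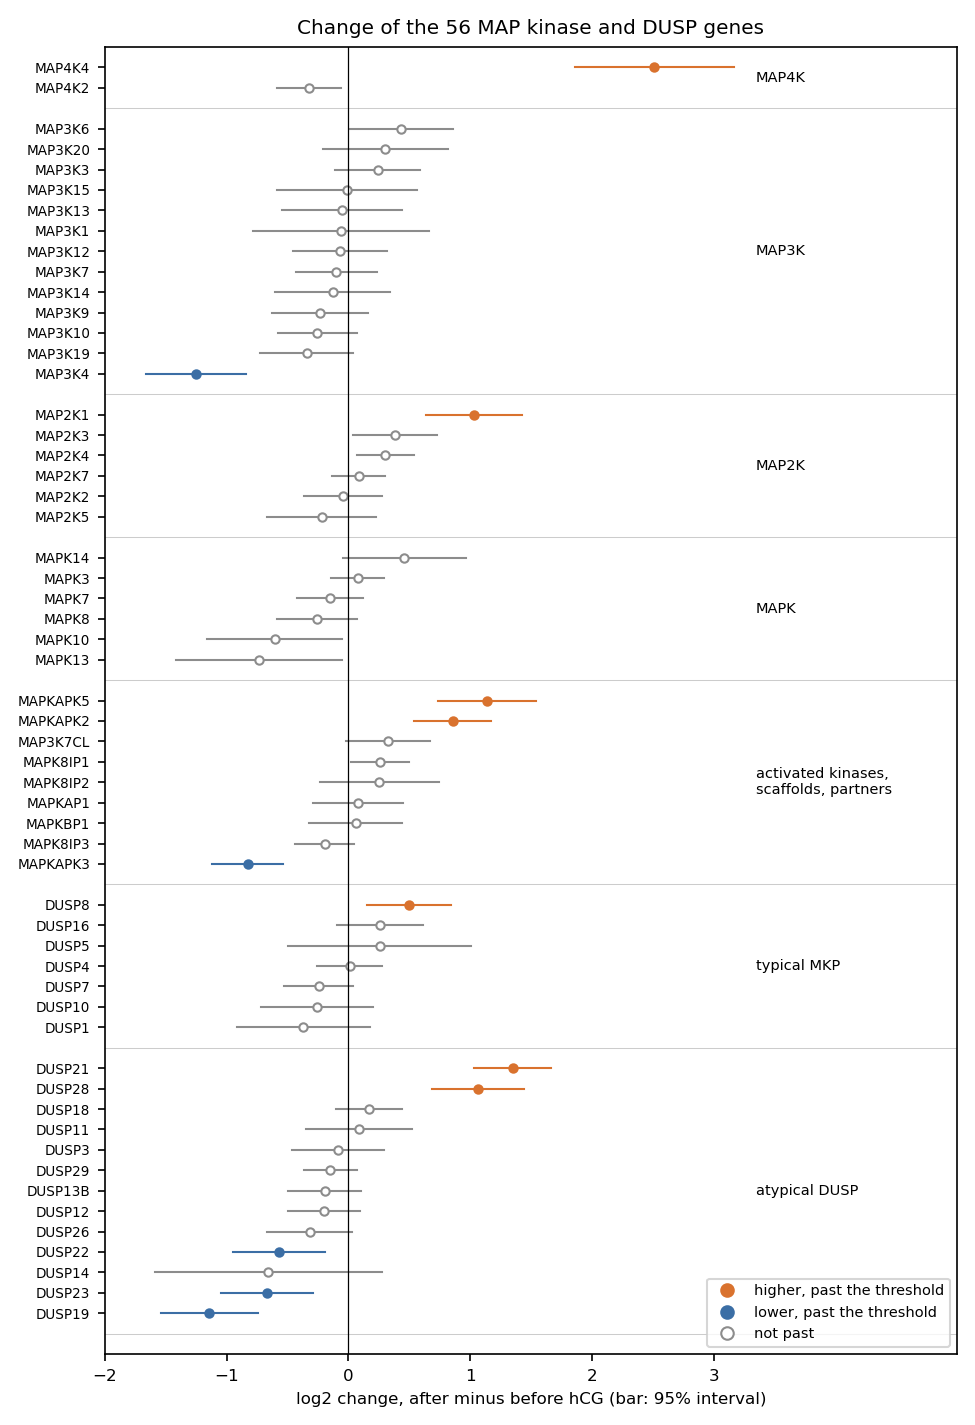
Log2 change, after minus before hCG, of each of the 56 genes (points, with 95% intervals from the limma fit), grouped by tier; filled points passed the threshold, orange for higher and blue for lower. MAP4K4 at 2.51 stands to the right of all others, and none of the 6 MAP kinases is filled.

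None of the 6 measured MAP kinases themselves passed the threshold (limma), and 2 of them, MAPK10 and MAPK13, had an unadjusted p under 0.05 (0.0352 and 0.0376). MAPK3, which encodes ERK1, read 8.67, 8.68, 8.73 and 8.55 on arrays 1 to 4 before hCG and 8.77, 8.66, 8.73 and 8.78 after it. The groups overlapped, and the log2 change was 0.08 with a 95% interval of -0.14 to 0.30, so a change of 2-fold in either direction lay outside the interval. MAPK8 (JNK1) read 6.46, 6.42, 6.52 and 6.65 before and 5.89, 6.33, 6.23 and 6.56 after hCG. Its change was -0.26 (95% interval -0.59 to 0.07), with the highest array after hCG inside the range before it. The second probe set of MAPK8 read 5.46 to 5.57 before and 5.04 to 5.28 after hCG, without overlap. It differed by -0.30 and did not pass (limma, adjusted p = 0.0749 over all probe sets), and the third differed by 0.10. MAPK14 (p38 alpha) read 5.28, 4.91, 5.39 and 4.89 before and 5.29, 5.95, 5.98 and 5.10 after hCG, with a change of 0.46 (interval -0.04 to 0.96). Arrays 2 and 3 after hCG lay above all arrays before hCG, and arrays 1 and 4 within their range.

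MAPK13 (p38 delta) read 9.64, 9.98, 9.78 and 9.40 before and 9.01, 8.52, 9.93 and 8.42 after hCG. After hCG, array 3 was as high as the arrays before it, while the other three were below them all. The change was -0.73 (adjusted p = 0.115), and without array 3 after hCG it was -1.05 (adjusted p = 0.00400). Its weaker probe set differed by 0.13. MAPK10 (JNK3) read 4.95, 5.20, 6.21 and 5.18 before and 4.67, 4.94, 4.85 and 4.67 after hCG. The groups lay next to each other, with array 3 before hCG far above the rest. The difference was -0.61 (adjusted p = 0.110), and -0.33 without that array (adjusted p = 0.112). MAPK7 (ERK5) differed by -0.15. DUSP6, a phosphatase of ERK, was not analysed here.

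One tier up, 1 of 6 MAP kinase kinases passed. MAP2K1 read 10.36, 10.64, 10.55 and 10.11 before hCG and 11.49, 11.14, 11.32 and 11.85 after it. Every array after hCG lay above every array before it, and the log2 increase was 1.03 (SE 0.18, adjusted p = 0.00235). MAP2K2 (MEK2), which shares its substrate ERK with MAP2K1, read 10.55, 10.30, 10.54 and 10.45 before and 10.32, 10.29, 10.79 and 10.25 after hCG, with a change of -0.05 (95% interval -0.37 to 0.27). After hCG the 3 lower arrays of MAP2K2 lay close together and array 3 lay apart, above all arrays before hCG. Within each array, the log2 difference between MAP2K1 and MAP2K2 shifted by 1.08 without overlap between the groups. MAP2K4, which acts on JNK and p38, differed by 0.31 without overlap but did not pass (adjusted p = 0.0635). It passed with averaged probe sets, median centring or an added intensity of 32 (adjusted p = 0.0427, 0.0463 and 0.0275). Since MAP2K4 has 1 probe set, averaging left its own values unchanged and altered only the fit over the other genes. MAP2K3, a p38 activator, had a change of 0.38 (adjusted p = 0.102). When array 3 after hCG was left out the adjusted p was 0.0354. MAP2K7 (JNK) and MAP2K5 (ERK5) differed by 0.08 and -0.22.

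**Figure D2:**
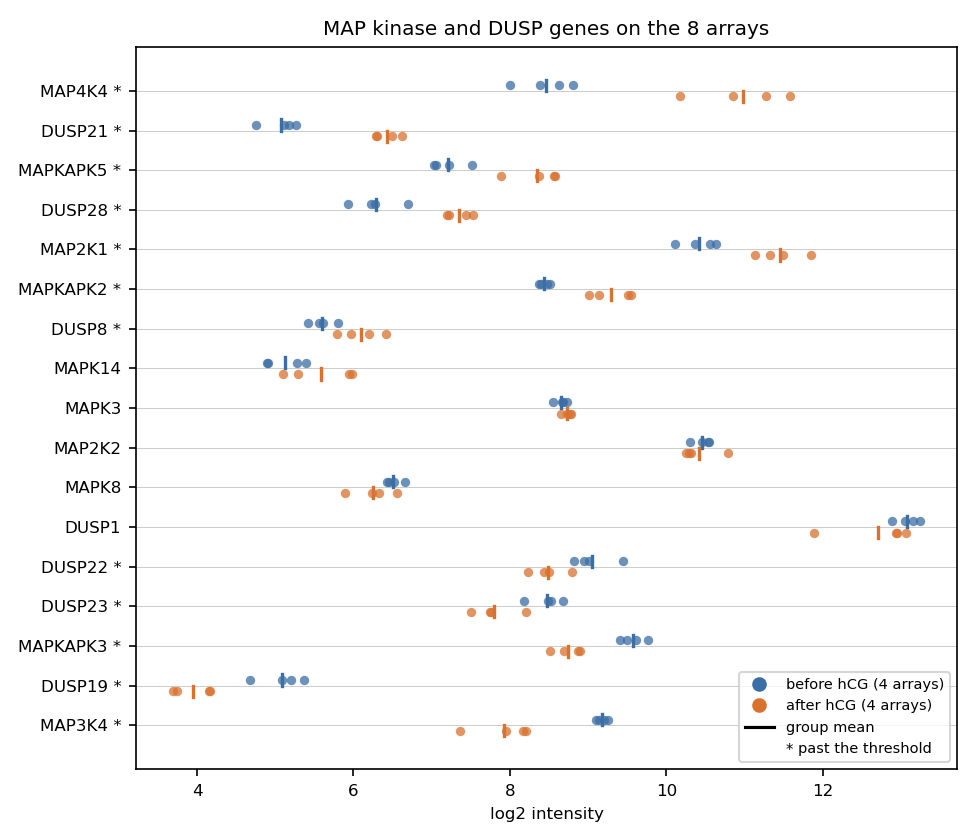
Log2 intensity on each array (points, blue for the 4 before hCG and orange for the 4 after hCG; vertical ticks are group means) of the 12 genes past the threshold, marked with an asterisk, and of MAPK14, MAPK3, MAP2K2, MAPK8 and DUSP1. The groups are apart for MAP2K1 and overlap for MAP2K2, and DUSP1 has a single low array after hCG at 11.89.

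Of 13 MAP3K genes, 1 passed, and it fell. MAP3K4, an activator of p38 and JNK that binds GADD45 proteins, read 9.26, 9.09, 9.14 and 9.20 before and 8.21, 7.95, 8.16 and 7.36 after hCG. The arrays before hCG lay within a narrow band, and array 4 after hCG was the lowest. The fall was 1.25 (log2 change -1.25, SE 0.18, adjusted p = 0.000949), and -1.06 to -1.35 when any 1 array was left out. The other 12 MAP3K genes differed by -0.34 to 0.43. A change below 0 was seen in 10 of the 13, and in 8755 of all 14132 genes, by the brightest probe set. Averaged over probe sets, MAP3K1, MAP3K12 and MAP3K13 lay above 0 (0.06, 0.03 and 0.68), and MAP3K3, MAP3K6 and MAP3K20 stayed above it. MAP3K1 (MEKK1), which feeds the JNK and ERK cascades, read 8.06 to 9.77 after hCG, a wider spread than the 8.62 to 9.33 before it, with a change of -0.06 (95% interval -0.78 to 0.66). MAP3K7 (TAK1), an entry point for cytokine signals, differed by -0.10, and MAP3K14 (NIK), which feeds the noncanonical NF-kappa B pathway, by -0.13. MAP3K3 (MEKK3), above ERK5, differed by 0.24, and MAP3K12, a kinase of the neuronal injury response, by -0.06. MAP3K6 and MAP3K15, relatives of the stress kinase ASK1, differed by 0.43 and -0.01. The mixed-lineage kinases MAP3K9 and MAP3K10 differed by -0.23 and -0.25, and MAP3K19 by -0.34.

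For 2 MAP3K genes a probe set other than the brightest passed over all probe sets. The brightest of the 3 probe sets of MAP3K13, a leucine zipper kinase above JNK, differed by -0.05 (adjusted p = 0.884). A weaker one read 5.24, 5.06, 4.84 and 5.18 before and 6.86, 6.62, 6.39 and 7.65 after hCG, an increase of 1.80 (SE 0.24, adjusted p = 0.000865 over all probe sets), and the third differed by 0.28. The groups were well apart on the second probe set and overlapped on the first, and averaged over the 3 the gene rose by 0.68 (adjusted p = 0.00219). For MAP3K20 (ZAK), a sensor of stalled ribosomes, the brightest probe set differed by 0.30 and the other rose by 0.83 (adjusted p = 0.0102 over all probe sets), from 5.74 to 6.24 before to 6.39 to 7.03 after hCG. Which transcripts each probe set reads was not tested.

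At the top tier, MAP4K4 had the largest change of the 56 genes. It read 8.81, 8.63, 8.39 and 8.01 before and 11.58, 10.86, 10.18 and 11.28 after hCG. The lowest array after hCG, array 3, lay above the highest before it. The log2 increase was 2.51 (SE 0.29, adjusted p = 0.000260), with 2.31 to 2.78 when any 1 array was left out. All 3 of its probe sets rose, by 2.51, 2.43 and 2.19. MAP4K2, the other MAP4K measured, read 6.84 to 7.08 before and 6.44 to 6.79 after hCG. It differed by -0.32 without overlap and did not pass (adjusted p = 0.0774).

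The kinases below the MAP kinases moved in opposite directions. MAPKAPK2 (MK2) and MAPKAPK3 (MK3) are both activated by p38 and act on the stability and translation of messenger RNAs. MAPKAPK2 read 8.48, 8.39, 8.51 and 8.38 before and 9.54, 9.51, 9.01 and 9.13 after hCG. MAPKAPK3 read 9.61, 9.49, 9.41 and 9.77 before and 8.90, 8.87, 8.69 and 8.51 after hCG. Neither gene's groups overlapped, with MAPKAPK2 higher on every array after hCG and MAPKAPK3 lower on every one. MAPKAPK2 rose by 0.86 (SE 0.14, adjusted p = 0.00190) and MAPKAPK3 changed by -0.83 (SE 0.13, adjusted p = 0.00149), and the log2 difference between them within an array shifted by 1.68.

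Both calls rest on the brightest probe set. The 2 other probe sets of MAPKAPK2 differed by 0.12 and 0.08, and the other one of MAPKAPK3 by -0.07. The averages over probe sets kept the direction at a smaller size, 0.36 for MAPKAPK2 (adjusted p = 0.0215) and -0.45 for MAPKAPK3 (adjusted p = 0.0118). MAPKAPK5 (PRAK), a partner of the atypical MAP kinase ERK3, read 7.23, 7.03, 7.52 and 7.06 before and 8.58, 8.37, 7.89 and 8.56 after hCG. All arrays after hCG were above those before it, array 3 being the nearest. The increase was 1.14 (SE 0.18, adjusted p = 0.00153), and its second probe set rose by 1.09.

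**Figure D3:**
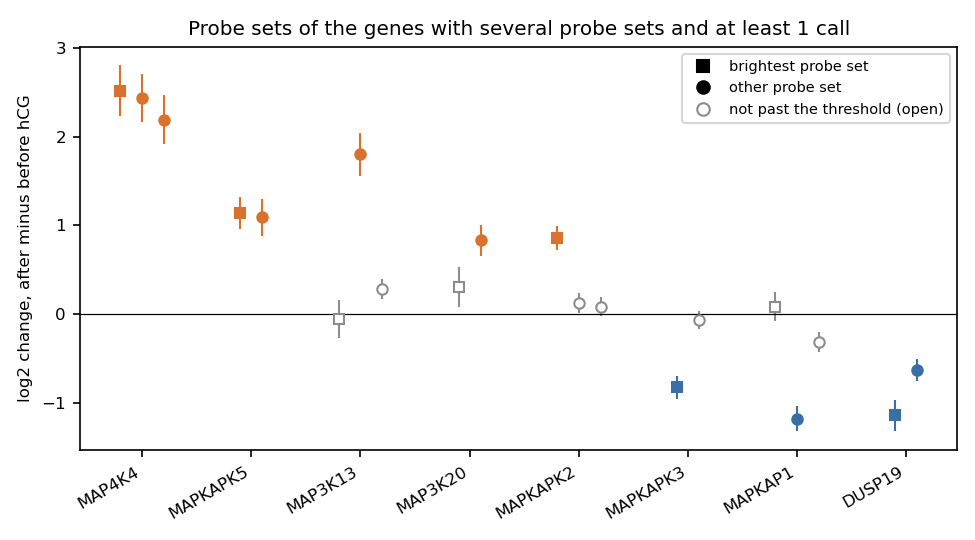
Log2 change of every probe set (points with SE) for the 8 genes that have several probe sets and at least 1 past the threshold over all probe sets; squares mark the brightest probe set, on which the counts in the text rest, and open symbols did not pass. The probe sets of MAP4K4, MAPKAPK5 and DUSP19 all passed in 1 direction, while those of MAP3K13, MAP3K20, MAPKAPK2, MAPKAPK3 and MAPKAP1 did not.

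The remaining 6 genes of this group are scaffolds or partners, and none passed on its brightest probe set (limma; MAPK8IP1 had an unadjusted p of 0.0358). MAPK8IP1, MAPK8IP2 and MAPK8IP3, the JIP scaffolds that hold JNK to its activators, differed by 0.26, 0.26 and -0.19. MAPK8IP1 read 8.62 to 8.88 before and 8.88 to 9.08 after hCG (adjusted p = 0.111, or 0.0439 with an added intensity of 32). MAPKBP1, which binds JNK, differed by 0.06, and MAP3K7CL, named for its likeness to the C-terminal end of MAP3K7, by 0.33. The second probe set of MAPKBP1 differed by -0.34 without overlap and did not pass (limma, adjusted p = 0.0975 over all probe sets). MAPKAP1 (SIN1), known as a subunit of the mTORC2 kinase complex and thus of another pathway, differed by 0.08 on its brightest probe set. Its second probe set read 8.37, 8.42, 8.13 and 8.45 before and 7.06, 7.13, 7.51 and 6.97 after hCG. These groups were well apart, with a change of -1.18 (SE 0.14, adjusted p = 0.000401 over all probe sets), and the average of its 3 probe sets changed by -0.47 (adjusted p = 0.00827). Over the 98 probe sets of the 56 genes, 11 were higher and 7 lower, 18.4% in all, against 14.1% of all 52766 probe sets. These sets are unlike, since 27449 of the 52766 have no gene symbol, whereas all 98 have 1. By gene the shares were 21.4% and 23.8%. Of the 31 genes with several probe sets, none had calls in both directions and 23 had no call.

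Of 7 typical MAP kinase phosphatases, 1 passed. DUSP1 (MKP-1), the immediate early phosphatase of the nucleus, read 13.15, 12.89, 13.24 and 13.05 before and 12.94, 12.95, 11.89 and 13.06 after hCG. After hCG 3 arrays lay within the range before it, and array 3 lay below. The change was -0.37 (95% interval -0.91 to 0.18), and -0.10 without array 3 after hCG; its weaker probe set differed by 0.05. FOS, another immediate early gene, fell by 1.07 (adjusted p = 0.0434), but its call was lost without any of 7 of the 8 arrays in turn, and with array 3 after hCG left out it was -0.74 (adjusted p = 0.0503).

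DUSP4 and DUSP5, the other nuclear and inducible phosphatases measured, differed by 0.01 and 0.26. DUSP5, which acts on ERK, read 7.16 on array 1 after hCG against 5.41 to 6.14 on the other 3. DUSP7, a phosphatase of ERK in the cytoplasm, read 7.22 to 7.64 before and 6.96 to 7.16 after hCG and did not pass (adjusted p = 0.205). Its weaker probe set differed by 0.20, in the other direction. Of those that act on JNK and p38, DUSP16, with 3 probe sets, differed by 0.26 and DUSP10 by -0.25. DUSP8 read 5.41, 5.80, 5.56 and 5.61 before and 5.97, 6.42, 6.20 and 5.78 after hCG. Array 4 after hCG overlapped the highest array before it. Its increase of 0.50 (SE 0.16, adjusted p = 0.0438) did not pass over all probe sets (adjusted p = 0.0583) or with an added intensity of 32 (adjusted p = 0.0559), nor without array 1, 3 or 4 before hCG or array 1, 2 or 3 after it (adjusted p = 0.0589 to 0.114).

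Of 13 atypical DUSPs, small phosphatases that lack the kinase-binding domain of the typical ones, 2 rose, 3 fell and 8 did not pass. DUSP21, a phosphatase found at mitochondria, read 5.11, 5.26, 4.76 and 5.17 before and 6.49, 6.62, 6.30 and 6.29 after hCG. The arrays of each group lay close together, and the increase was 1.35 (SE 0.14, adjusted p = 0.000135), from a signal below the array median. With an added intensity of 32 it was 0.84 (adjusted p = 0.000395). Its near relative DUSP18 differed by 0.17 (95% interval -0.10 to 0.44). DUSP28 read 5.93, 6.22, 6.70 and 6.28 before and 7.19, 7.22, 7.44 and 7.53 after hCG. The groups were apart, and it rose by 1.06 (SE 0.17, adjusted p = 0.00155).

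DUSP19, which binds kinases of the JNK cascade, read 4.68, 5.37, 5.20 and 5.09 before and 3.70, 3.75, 4.16 and 4.17 after hCG. All of these lie below the array median, and the groups did not overlap. Its change was -1.14 (SE 0.18, adjusted p = 0.00147) and that of its second probe set -0.63; with an added intensity of 32 it was -0.48 (adjusted p = 0.00571). DUSP22, a JNK pathway regulator, read 9.44, 8.95, 9.01 and 8.81 before and 8.80, 8.23, 8.50 and 8.43 after hCG. The highest array after hCG lay just below the lowest before it. Its change of -0.57 (adjusted p = 0.0360) did not pass after median centring (adjusted p = 0.0623) or without array 1, 2 or 3 before hCG or array 2, 3 or 4 after it (adjusted p = 0.0578 to 0.0940). DUSP23 read 8.53, 8.18, 8.49 and 8.68 before and 7.76, 7.75, 8.20 and 7.50 after hCG. Array 3 after hCG overlapped array 2 before it, and the change was -0.67 (adjusted p = 0.0176, or 0.0523 without array 4 before hCG).

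DUSP14 differed by -0.66 with a wide interval of -1.59 to 0.27, since its arrays read 8.02 to 8.27 before and 8.63, 7.74, 7.25 and 6.20 after hCG. Without array 1 after hCG the change was -1.05 (adjusted p = 0.0468). DUSP11, which removes phosphates from RNA ends, differed by 0.09 and DUSP12 by -0.20. DUSP3 (VHR), DUSP13B, DUSP26 and DUSP29 differed by -0.09, -0.19, -0.32 and -0.15. In all, 9 of the 56 genes had group means below the array median both before and after hCG, where the size of a fold depends on how background was corrected.

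The cascades hold further genes under other names. Of 64 such genes measured, from 88 listed, 17 were higher and 4 lower after hCG (26.6% and 6.25%, against 11.3% and 12.5% of all genes), with a median change of 0.01. The list was chosen with earlier results of these data known, and its counts are a description. Among Ras proteins, Raf kinases and their adaptors, 8 of 21 were higher, 1 lower and 12 not past. RRAS, a Ras-related small G protein, rose by 2.20 (SE 0.16), RRAS2 by 1.42 and PTPN11 (SHP2), a phosphatase that promotes Ras signalling, by 1.01, or by 0.63 averaged over its 3 probe sets. The adaptor SHC1 and the Ras activators SOS1 and SOS2 rose by 0.82, 0.66 and 0.63, HRAS by 0.56 and RAPGEF2, an activator of Rap proteins, by 0.79. KSR1, the scaffold that brings Raf, MAP2K1 and ERK together, fell, reading 10.42 ± 0.23 before and 7.90 ± 0.56 after hCG (SD, n = 4; log2 change -2.52, SE 0.26). Of its 3 probe sets 2 fell, and their average changed by -1.17. The Raf kinases ARAF and BRAF differed by -0.15 and 0.19 and did not pass.

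**Figure D4:**
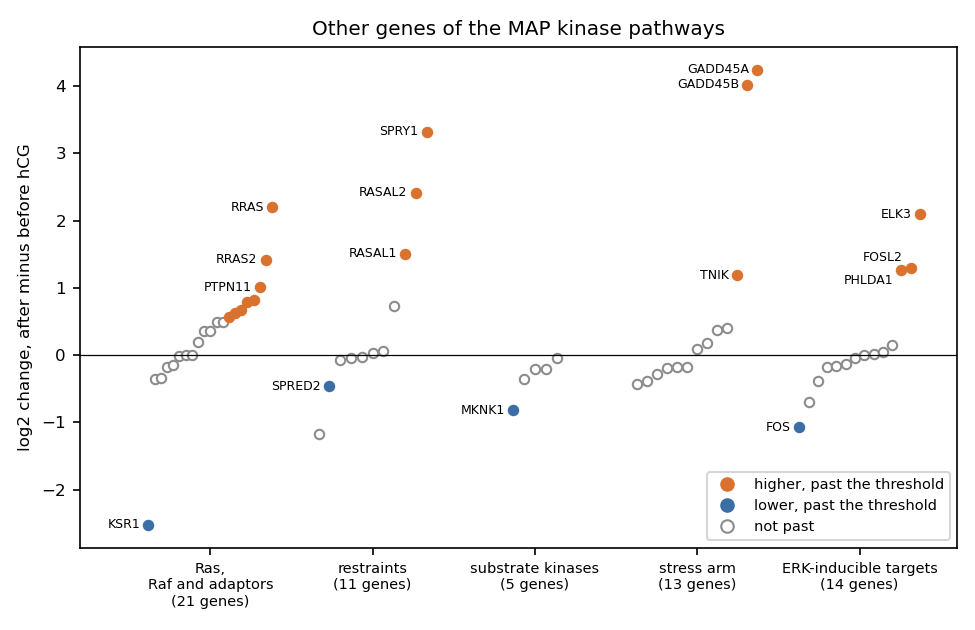
Log2 change, after minus before hCG, of 64 other genes of the MAP kinase pathways in 5 lists, 1 point per gene in order of its change; filled points passed the threshold and those named in the text by rule carry their symbols. In the list of Ras, Raf and adaptors 8 points are orange and KSR1 alone is blue, at -2.52.

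Among genes that restrain the pathway, 3 of 11 were higher, 1 lower and 7 not past. SPRY1 (Sprouty 1), a feedback inhibitor of receptor tyrosine kinase signals, rose by 3.32 (SE 0.32), from 6.61 ± 0.15 to 9.93 ± 0.75 (SD, n = 4), while SPRY2 and SPRY4 differed by -1.17 and 0.74 and did not pass (adjusted p = 0.167 and 0.176). RASAL2 and RASAL1, which switch Ras off, rose by 2.41 and 1.51, the latter by 0.66 averaged over its 2 probe sets. SPRED2 was lower by its brightest probe set (-0.46, adjusted p = 0.0241), but another rose by 1.43, and the average of all 3 differed by 0.28. Of 5 kinases that ERK or p38 phosphorylate, MKNK1, which acts on the translation factor eIF4E, changed by -0.82 (SE 0.12) and the other 4 did not pass. In the stress arm 3 of 13 were higher: GADD45A, GADD45B and TNIK, a relative of MAP4K4 that rose by 1.19 (SE 0.30). GADD45A and GADD45B, partners of MAP3K4, rose by 4.24 and 4.02 while MAP3K4 fell; averaged over its 3 probe sets, GADD45A rose by 1.52.

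Of 14 genes listed as targets of ERK, induced by it or, as the ETS factors ELK1, ELK3 and ELK4, phosphorylated by it, 3 were higher, 1 lower and 10 not past. ELK3 rose by 2.09 (SE 0.17), with 1 of its 2 probe sets past the threshold and an average of 0.97. FOSL2 and PHLDA1 rose by 1.30 and 1.27, the latter by 0.77 averaged over its 5 probe sets. JUNB, EGR2, IER2, IER5, MYC and CCND1 did not pass, with changes of -0.70 to 0.16.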

How the data were processed

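Granulosa cell RNA from 4 samples before and 4 after hCG was purified, linearly amplified and biotin-labelled, per the labels' protocols. The authors deposited intensity values made with Affymetrix Expression Console and RMA, per the submitters' processing notes; the values are linear, so log2 was taken. After 99 array controls were left out, 52766 probe sets remained, of which 24956 had 1 gene symbol in the platform annotation. Symbols were updated by gene ID (24616 matched), which changed none of the 56, and each of 14132 genes was represented by the probe set whose mean log2 value was highest. Groups were compared with limma 3.58.1 (lmFit, eBayes; R 4.3.3) over all genes and over all probe sets, with Benjamini-Hochberg adjustment. The members, lists and tests were chosen with earlier results of these data known. Values on every array are given for index genes and for the 10 largest changes each way without overlap (6 higher and 4 lower qualified), then all other genes past the threshold. Pathway genes named are the 3 largest per list and direction, and the others named were chosen after their values were seen. Data were simulated for this comparison over 14132 genes in 20 runs, with 200 genes changed. Planted log2 changes of 0.5, 1 and 2 were recovered in 17.1%, 67.6% and 95.5% of cases. In the deposited data a larger share of genes passed (23.8%), and the adjustment depends on that share. The recovery rates therefore need not hold for the real comparison. Precision is limited by the number of arrays. The labels state no pairing, so the main fit took the arrays as unpaired.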

Additional observations from a re-analysis of the deposited data

Results flagged for a closer look

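Among 112 sets of 4 arrays (56 genes in 2 groups), 7 held an array whose gap to the others was above Dixon's 95% critical value for 4 samples; chance flags about 1 set in 20. Array 3 after hCG was low for DUSP1 (11.89, others 12.94 to 13.06) and DUSP7 (6.96, others 7.13 to 7.16) and high for MAP2K2 (10.79, others 10.25 to 10.32). Array 4 after hCG was low for MAP3K20 (5.97, others 6.72 to 6.85), and array 1 after hCG for MAP3K7 (5.04, others 5.50 to 5.59). Before hCG, array 4 was high for DUSP7 (7.64, others 7.22 to 7.28) and array 2 for DUSP10 (4.98, others 4.28 to 4.33).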

How the results depend on the processing

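Of the 12 genes past the threshold, 9 kept their direction and passed under every alternative run in which they were tested. DUSP22, DUSP23 and DUSP8 did not. For the 7 of the 12 that have 1 probe set, averaging probe sets could not alter the log2 values. The alternatives were averaged probe sets, repeated quantile normalization, median centring, 32 added to each intensity, a filter of low signals (45 of the 56 genes left, without DUSP19), a trended robust variance, unchanged platform symbols, adjustment over all probe sets, a replicate block, and each array left out. They gave 7 to 9 genes higher and 4 to 6 lower, and 6 to 7 and 4 to 6 with 1 array left out; the median change stayed between -0.11 and -0.01. The replicate block gave the same 7 and 5 and changed no call among the 56 genes. Same-numbered arrays deviated together with correlations of -0.03 to 0.16, and differently numbered ones with -0.21 to 0.16. With 4 arrays per group these values cannot settle whether the numbers mark pairs. FOS did not pass with the block (limma, adjusted p = 0.0766), median centring (0.0576) or an added intensity of 32 (0.0681), nor over all probe sets. Among the 17 genes plotted by array, those whose value changed sign, neither of them past the threshold, were MAPK3 (-0.0485 after repeated quantile normalization) and MAP2K2 (0.00971 without array 4 after hCG, and as low as -0.172 without array 3 after it). Over all 56 genes 15 changed sign under some setting, none of them past the threshold. For the 64 other pathway genes averaging probe sets was planned and the other settings were added after seeing the data: 15 to 18 were higher throughout, and the 4 lower became 7 after repeated quantile normalization and 2 to 5 with 1 array left out, 2 being without array 1 before hCG; the cause was not tested. SPRED2 also did not pass without array 1 or 4 before hCG or array 1 or 2 after it.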
